A study of Mus musculus with 6 samples.

Results

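The genes described here are 35 mouse genes known to be switched on by type I interferon and to act against viruses. They were taken as a named list, and all 35 were found by symbol among the 55401 genes of a table of estimated read counts from lacrimal gland RNA. All 35 also passed the filter on low counts that left 18537 genes for testing. The lacrimal gland makes the watery layer of the tear film. RNA from 3 gland samples of NOD/Ltj mice was compared with RNA from 3 gland samples of ICR mice. The inbred NOD/Ltj strain develops autoimmunity by itself and models Sjögren's syndrome, in which the immune system attacks tear and salivary glands, and the outbred ICR stock was the control. No group carried an added allele or treatment per the labels, which give neither age nor sex nor the number of animals behind a sample. For the NOD/Ltj samples the title field spells the strain MOD and the genotype field NOD/Ltj, and the genotype field was followed.

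Type I interferons are antiviral cytokines that bind a receptor of the chains IFNAR1 and IFNAR2. The receptor's kinases activate a complex called ISGF3, which holds STAT2 and IRF9. This complex binds the interferon-stimulated response element (ISRE), a short DNA element in front of many interferon-stimulated genes. The products of these genes sense foreign RNA, block its translation, degrade it or stop viral entry and exit. Interferon-γ, the type II interferon of T and natural killer cells, acts at another element (GAS), and many genes answer to both. In patients with Sjögren's syndrome, raised levels of such genes in glands and blood are known as an interferon signature.

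The stretches in front of the gene starts show where the letters of this element occur. Of the 35 genes, 26 had an entry in the RefSeq promoter table (build GRCm38.p6), which runs from 250 bases before to 50 bases after a gene's start. Printed are the 200 bases just before the start, 5′ to 3′ on the gene's strand, with each match to the ISRE core (GAAANNGAAA or its reverse complement TTTCNNTTTC, on either strand, overlapping matches included) in capitals. Rsad2 and Samd9l are shown because both rose in NOD/Ltj glands, and Isg15, Ifit1, Ifit3 and Ifit3b because they are textbook members that were not called, the last a close relative of Ifit3. The Rsad2 stretch is chr12:26456453-26456652 (minus strand), with a match 120 bases before the start. The Samd9l stretch is chr6:3399572-3399771 (minus strand), with no match. The Isg15 stretch is chr4:156200819-156201018 (minus strand), with overlapping matches at 78, 72 and 66 bases, and that of Ifit1 is chr19:34640689-34640888 (plus strand), with matches at 104 and 85 bases. The Ifit3 stretch is chr19:34583329-34583528 (plus strand) with matches at 156 and 122 bases, and that of Ifit3b is chr19:34607757-34607956 (plus strand) with matches at 188 and 154 bases.
Rsad2: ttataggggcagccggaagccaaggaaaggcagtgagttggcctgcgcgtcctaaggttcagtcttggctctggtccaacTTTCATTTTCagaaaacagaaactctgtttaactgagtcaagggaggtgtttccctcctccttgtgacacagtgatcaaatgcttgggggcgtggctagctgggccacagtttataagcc
Samd9l: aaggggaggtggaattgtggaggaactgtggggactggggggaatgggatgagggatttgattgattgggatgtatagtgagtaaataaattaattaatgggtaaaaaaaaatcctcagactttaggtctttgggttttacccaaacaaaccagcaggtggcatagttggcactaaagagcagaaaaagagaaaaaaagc
Isg15: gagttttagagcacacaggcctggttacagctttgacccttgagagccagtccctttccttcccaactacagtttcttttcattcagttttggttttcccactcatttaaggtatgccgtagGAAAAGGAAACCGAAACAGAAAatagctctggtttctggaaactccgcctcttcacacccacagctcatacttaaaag
Ifit1: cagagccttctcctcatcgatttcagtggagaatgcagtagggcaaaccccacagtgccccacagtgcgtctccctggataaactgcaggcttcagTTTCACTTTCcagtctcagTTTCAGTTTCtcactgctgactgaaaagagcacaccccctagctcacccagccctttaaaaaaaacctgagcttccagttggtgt
Ifit3: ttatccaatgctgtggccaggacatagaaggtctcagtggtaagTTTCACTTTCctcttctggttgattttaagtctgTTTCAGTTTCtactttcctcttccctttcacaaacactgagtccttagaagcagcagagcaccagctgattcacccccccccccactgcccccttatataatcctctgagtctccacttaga
Ifit3b: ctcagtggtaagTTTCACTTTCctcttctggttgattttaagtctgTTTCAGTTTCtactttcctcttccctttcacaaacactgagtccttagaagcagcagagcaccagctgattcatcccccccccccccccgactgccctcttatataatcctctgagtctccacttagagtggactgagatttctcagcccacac

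The ISRE core was found in 14 of the 26 matched genes (53.8%), and in 3.44% of all 32851 windows of the table (3.99% of 27025 genes). The GAS letters TTCNNNGAA, which are their own reverse complement, were found in 7 of the 26 (26.9%), and in 8.3% of all windows (9.55% of genes). In Bst2 and Ifitm3 a match to the one overlapped a match to the other. The 14 genes with the ISRE core had a median log2 fold change between the strains of 0.79, from −0.16 to 2.60, with 1 called higher (Rsad2). The 12 matched genes without it had a median of 1.14, from 0.12 to 2.76, also with 1 called higher (Samd9l). A match describes the letters of the reference sequence, not binding, and the strains' own promoter sequences were not analysed here. Parp14, Rtp4, Mx1, Parp9, Ifi27l2a, Mx2, Dhx58, Oas2 and Usp18 had no entry.

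The comparison asked how the NOD/Ltj gland differs from the ICR gland. Of the 35 genes, 3 rose in NOD/Ltj, namely Mx1, Samd9l and Rsad2, which is 8.57% of the list. A gene was called when its adjusted p was under 0.05 in edgeR's quasi-likelihood test over the 18537 genes that passed the filter on low counts. Over all those genes 1.88% were called higher. None of the 35 was called lower, as were 0.361% of all genes, and none had an unadjusted p under 0.05 in that direction in edgeR, DESeq2 or limma-voom. The remaining 32 did not pass, yet 34 of the 35 had a positive log2 fold change, with Ifitm3 the exception (−0.16). The median log2 fold change of the list was 1.24, or 2.36-fold, beside −0.03 over all genes tested. An unadjusted p under 0.05 in the higher direction was reached by 19 members, as by 8% of all genes, and a log2 fold change of at least 1 by 20, as by 9.47%. In 22 members every NOD/Ltj library lay above every ICR library, as in 11.2% of all genes, and in none did every NOD/Ltj library lie below, as in 8.89%. In bulk tissue, more cells of a type that makes these transcripts and more transcript per cell cannot be told apart.

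**Figure D1:**
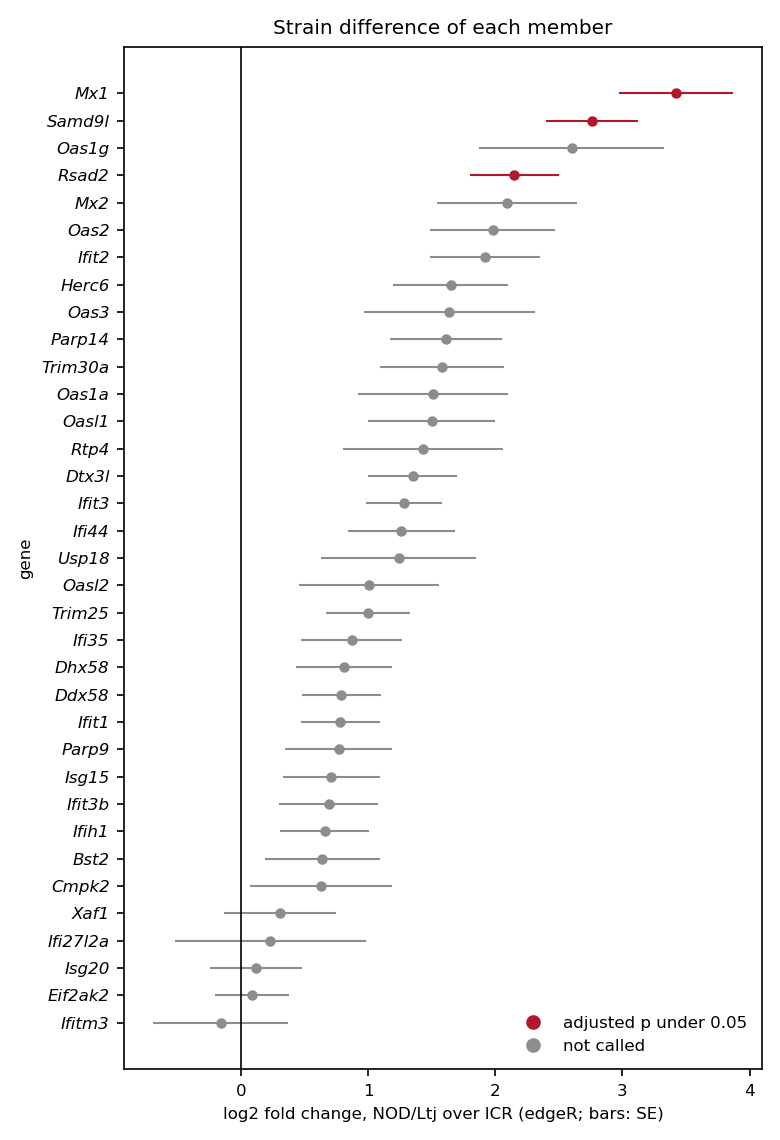
Log2 fold change of each of the 35 genes, NOD/Ltj over ICR, from the edgeR fit, with bars of 1 standard error and the 3 called genes in red. Points run from −0.16 for Ifitm3 at the bottom to 3.42 for Mx1 at the top, and 34 of them lie right of 0.

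These calls moved with the tool and with single libraries. DESeq2 called 12 of the 35 higher (4.84% of all genes), adding Ifit2, Ifit3, Oas1g, Oas2, Herc6, Mx2, Dtx3l, Parp14 and Trim30a, and limma-voom called 2, Mx1 and Samd9l (0.664% of all genes). Without NOD/Ltj 1 edgeR called 2 members (2.09% of all genes). Without NOD/Ltj 2 it called 0 (0.33%), and without NOD/Ltj 3 also 0 (0.0572%). Without ICR 1 it called 9 (2.1% of all genes), namely Ifit3, Oas3, Herc6, Mx1, Rsad2, Cmpk2, Samd9l, Parp14 and Trim30a. Without ICR 2 it called Mx1 and Samd9l (0.577% of all genes), and without ICR 3 only Mx1 (0.621%). The median log2 fold change of the list was positive in each of these fits, between 0.82 without ICR 2 and 1.63 without ICR 1. The members with a positive log2 fold change numbered 32 without NOD/Ltj 1, 31 without ICR 2 and 34 or 35 in the others.

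The libraries held between 58426580 and 76554340 estimated counts, at about 4 counts per fragment, and their 20 most abundant genes took 50.7 to 63.4% of them. Levels are given as CPM, that is counts scaled to a common library total, with library sizes adjusted by edgeR's TMM method. A count of 0 allows up to 12 counts, or 0.157 to 0.205 CPM before scaling, and each of the 35 genes lay above that floor in all 6 libraries, with 21 as the lowest count. Acinar cells, which secrete the tear proteins, were well represented: 15 acinar markers summed to between 85521 and 134183 CPM in NOD/Ltj and between 129753 and 170228 CPM in ICR. Of the 14 of them tested, 0 were higher and 1 was lower in edgeR (Prol1), while an unadjusted p under 0.05 was reached by 0 higher and 3 lower ones. Spink5 was listed at 0 in all 6 libraries.

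**Figure D2:**
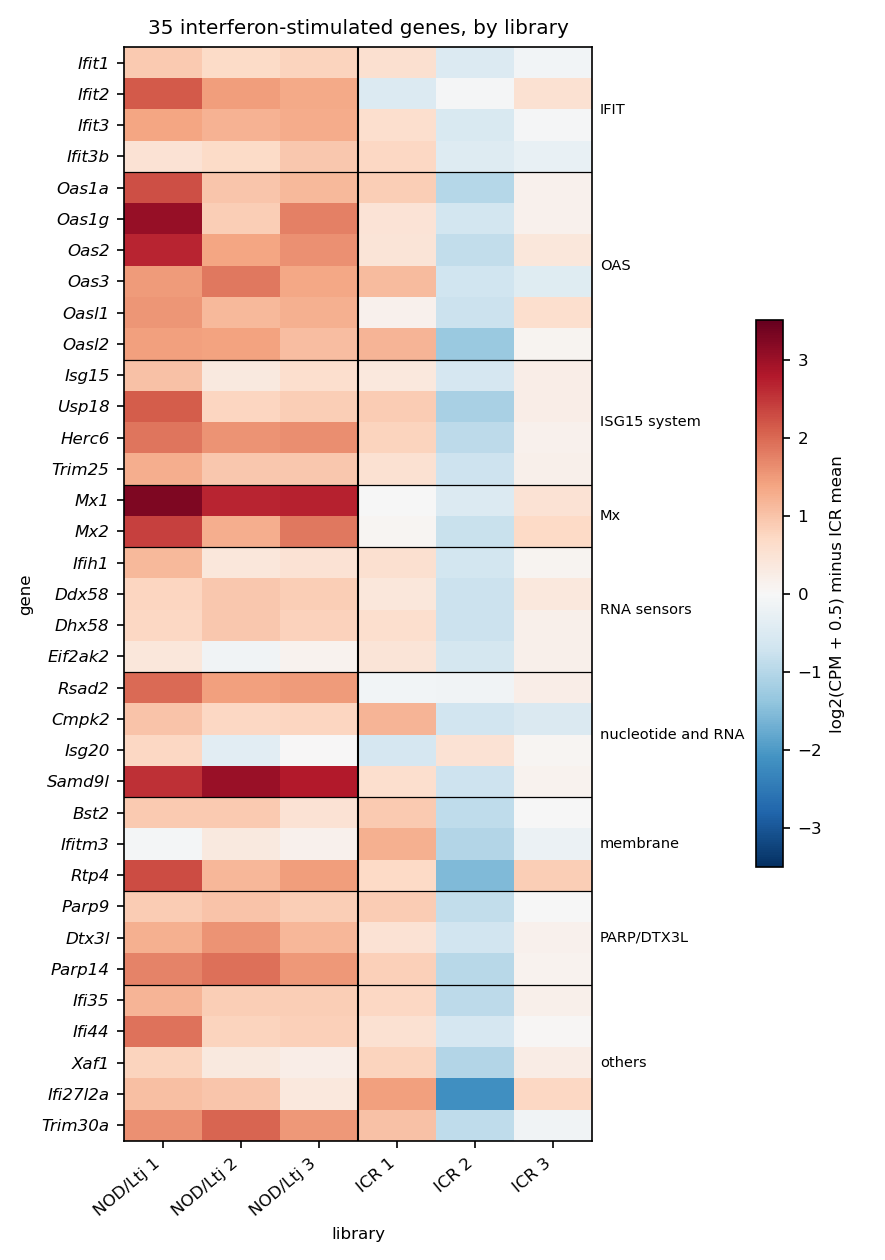
Level of the 35 genes in each library as log2(CPM + 0.5) minus the mean of the 3 ICR libraries, with genes down the page by role and the NOD/Ltj libraries to the left of the black line. The NOD/Ltj columns are red for most genes, NOD/Ltj 1 is the darkest for several OAS genes, and ICR 2 is the lowest ICR library for 33 of the 35 genes.

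Intact Mx genes encode dynamin-like GTPases that trap viral nucleoproteins, in the mouse Mx1 in the nucleus and Mx2 in the cytoplasm. The alleles that the strains carry, and any effect of them on the counts, were not examined here. Mx1 had the largest fold change of the 35. It stood at 12.4, 8.03 and 8.21 CPM in NOD/Ltj 1, 2 and 3, against 0.823, 0.452 and 1.4 CPM in ICR 1, 2 and 3. The groups did not overlap, and the lowest NOD/Ltj library lay far above the highest ICR library. Its log2 fold change was 3.42 ± 0.45 (SE, 10.7-fold, edgeR adjusted p = 0.0137), and between 3.10 and 3.90 with 1 library left out. Its adjusted p was 0.0587 without NOD/Ltj 2 and 0.0715 without NOD/Ltj 3, and from 0.0259 to 0.0376 in the other 4 reduced fits. Mx2 had 9.52, 4.05 and 6.32 CPM in the NOD/Ltj libraries, against 1.49, 0.614 and 2.57 CPM in the ICR libraries. Its groups did not overlap either, and its log2 fold change of 2.09 ± 0.55 (SE) did not pass (edgeR adjusted p = 0.131). The transcripts of the pair share little sequence: 3.91% of the 50-base stretches of Mx1 also occur in another gene, and 4.38% of those of Mx2.

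Among the genes that act on nucleotides, RNA or translation, Samd9l and Rsad2 rose and the others did not pass. SAMD9L is a cytoplasmic protein that holds back poxviruses and translation. Samd9l stood at 72.8, 101 and 84.6 CPM in NOD/Ltj, against 18.1, 7.01 and 13.1 CPM in ICR. The groups lay apart by a wide margin, and NOD/Ltj 2 was the highest library, unlike for Mx1. Its log2 fold change was 2.76 ± 0.36 (SE, 6.78-fold, edgeR adjusted p = 0.013), and between 2.47 and 3.09 with 1 library left out, with adjusted p of 0.0618, 0.0721 and 0.0635 without NOD/Ltj 2, NOD/Ltj 3 and ICR 3. Rsad2 encodes viperin, an enzyme that makes a chain-terminating nucleotide. It stood at 4.69, 2.99 and 3.15 CPM in NOD/Ltj, against 0.708, 0.695 and 1.03 CPM in ICR. The groups did not overlap, and relative to their mean the 3 ICR libraries lay closer together than for any other member. Its log2 fold change was 2.15 ± 0.35 (SE, 4.44-fold, edgeR adjusted p = 0.0251). Of the reduced fits only that without ICR 1 kept this call (adjusted p = 0.0391), and the other 5 gave 0.064 to 0.117.

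Cmpk2, a mitochondrial nucleotide kinase whose gene lies beside Rsad2, averaged 5.77 ± 0.711 CPM in NOD/Ltj and 3.71 ± 3.26 CPM in ICR (SD, n = 3 each). The groups overlapped, since ICR 1 with 7.47 CPM lay above each NOD/Ltj library, and the log2 fold change was 0.63 ± 0.56 (SE, edgeR adjusted p = 0.732). Isg20, an exonuclease of RNA, stood at 55.5, 25.8 and 33.8 CPM in NOD/Ltj, against 22.3, 48.3 and 35.2 CPM in ICR. It was 1 of the 2 members for which ICR 2 was not the lowest ICR library, the other being Ifit2, and its log2 fold change was 0.12 ± 0.36 (SE, edgeR adjusted p = 0.939).

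**Figure D3:**
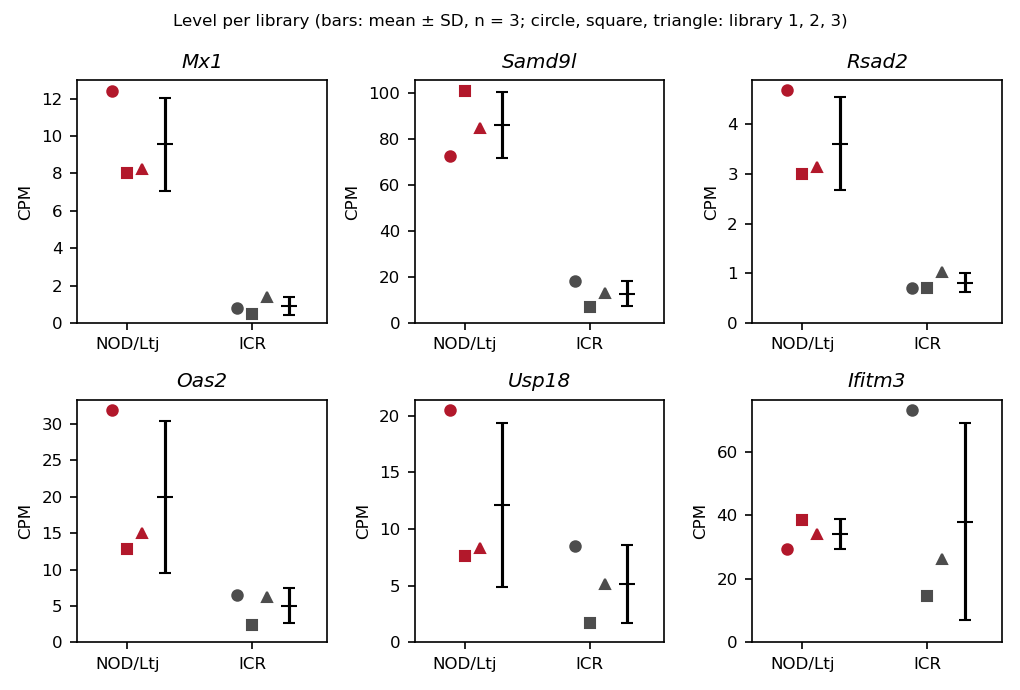
CPM in each library for 6 of the genes, NOD/Ltj in red and ICR in grey, with black bars for mean ± SD (n = 3 each) and each axis starting at 0. The groups lie apart for Mx1, Samd9l, Rsad2 and Oas2 and overlap for Usp18, where ICR 1 lies above NOD/Ltj 2 and 3, and for Ifitm3, where ICR 1 is the highest library.

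The OAS genes encode enzymes that are switched on by double-stranded RNA and make oligoadenylates that activate RNase L, while the related Oasl proteins are regulators of the response. None of the 6 passed, 5 had groups that did not overlap, and their median log2 fold change was 1.57. Oas2 stood at 31.9, 12.9 and 15.1 CPM in NOD/Ltj, against 6.57, 2.36 and 6.26 CPM in ICR (log2 fold change 1.98 ± 0.49 SE, edgeR adjusted p = 0.107). Oas1a had 16.2, 6.35 and 7.21 CPM in NOD/Ltj, against 5.82, 1.24 and 3.39 CPM in ICR (1.51 ± 0.59, adjusted p = 0.335). Oas1g had 10.2, 1.88 and 3.92 CPM in NOD/Ltj, against 1.33, 0.339 and 0.944 CPM in ICR (2.60 ± 0.73, adjusted p = 0.156). In all 3 of these genes NOD/Ltj 1 was more than 2-fold above the other NOD/Ltj libraries, and without it the log2 fold changes were 1.46, 0.96 and 1.73. Oas1a and Oas1g are uncertain, since 57.6% and 45.7% of their 50-base stretches occur in another gene, mostly in each other.

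The other members of the family had a flatter profile over the NOD/Ltj libraries. Oas3, the longest of these enzymes, stood at 3.89, 5.09 and 3.47 CPM in NOD/Ltj, against 2.86, 0.468 and 0.664 CPM in ICR (log2 fold change 1.64 ± 0.67 SE, edgeR adjusted p = 0.357). Oasl1, which in the mouse restrains the translation of Irf7, stood at 4.44, 3.21 and 3.5 CPM in NOD/Ltj, against 1.39, 0.501 and 2.06 CPM in ICR (1.50 ± 0.50, adjusted p = 0.248). Oasl2 stood at 34.8, 34.3 and 27.1 CPM in NOD/Ltj, against 29.4, 4.78 and 13.4 CPM in ICR (1.01 ± 0.55, adjusted p = 0.52). For Oasl2 the groups overlapped through ICR 1, which lay above NOD/Ltj 3, while for Oas3 and Oasl1 they did not. Without ICR 1 the log2 fold change of Oas3 was 2.86 and called (edgeR adjusted p = 0.0187), and that of Oasl2 was 1.81 (0.0759). Without ICR 2 that of Oasl2 was 0.58 (0.594).

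IFIT proteins bind viral RNA that lacks the cap marks of the host and block its translation. None of the 4 genes passed, and 3 had groups that did not overlap. Ifit2 stood at 8.15, 4.9 and 4.39 CPM in NOD/Ltj, against 0.91, 1.39 and 2.32 CPM in ICR (log2 fold change 1.92 ± 0.43 SE, edgeR adjusted p = 0.0808). Ifit3, which stabilises IFIT complexes, stood at 21.7, 19.3 and 20.7 CPM in NOD/Ltj, against 12.4, 5.38 and 7.76 CPM in ICR (1.28 ± 0.30, adjusted p = 0.0902). These were the lowest adjusted p-values of the list after the 3 called genes. Ifit1 averaged 8.42 ± 0.749 CPM in NOD/Ltj and 4.9 ± 2 CPM in ICR (SD, n = 3 each, log2 fold change 0.78 ± 0.31 SE, edgeR adjusted p = 0.341), without overlap. Ifit3b averaged 5.51 ± 0.946 CPM in NOD/Ltj and 3.41 ± 1.85 CPM in ICR (SD, n = 3 each, 0.69 ± 0.39, adjusted p = 0.539), with overlap. Ifit3 and Ifit3b are uncertain, since 51.2% and 45% of their 50-base stretches occur in another gene, again mostly in each other.

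ISG15 is a ubiquitin-like protein that is attached to other proteins by the ligase HERC6 in the mouse and removed by USP18, which also damps the receptor, and TRIM25 is a ligase that helps RIG-I signal. None of the 4 genes passed. Herc6 stood at 13.7, 11.1 and 11.6 CPM in NOD/Ltj, against 6.23, 1.55 and 3.81 CPM in ICR (log2 fold change 1.65 ± 0.45 SE, edgeR adjusted p = 0.146). Trim25 stood at 21.1, 16.8 and 16.6 CPM in NOD/Ltj, against 12.6, 4.89 and 9.74 CPM in ICR (1.00 ± 0.33, adjusted p = 0.244). For both the groups did not overlap and the NOD/Ltj libraries lay close together. Usp18 stood at 20.5, 7.59 and 8.33 CPM in NOD/Ltj, against 8.54, 1.7 and 5.19 CPM in ICR (1.24 ± 0.61, adjusted p = 0.464). Isg15 averaged 4.22 ± 1.15 CPM in NOD/Ltj and 2.58 ± 0.979 CPM in ICR (SD, n = 3 each, 0.71 ± 0.38, adjusted p = 0.514). For both the groups overlapped, because ICR 1 lay above the lowest NOD/Ltj library. Of the Herc6 stretches of 50 bases, 12.5% occur in another gene, mostly in the gene model Gm45193, so part of its count is uncertain.

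None of the 4 sensors of viral RNA passed, and their median log2 fold change was 0.72, below that of the list. Ddx58, which encodes RIG-I, stood at 20.8, 23.6 and 22.5 CPM in NOD/Ltj, against 16, 6.95 and 15.8 CPM in ICR (0.79 ± 0.31 SE, edgeR adjusted p = 0.34). Dhx58, which encodes the regulator LGP2, averaged 6.32 ± 0.49 CPM in NOD/Ltj and 3.61 ± 1.72 CPM in ICR (SD, n = 3 each, 0.81 ± 0.38, adjusted p = 0.435). Ifih1, which encodes MDA5, averaged 14.9 ± 4.45 CPM in NOD/Ltj and 9.4 ± 3.92 CPM in ICR (SD, n = 3 each, 0.66 ± 0.35, adjusted p = 0.508). The groups did not overlap for Ddx58 and Dhx58 and did for Ifih1. Eif2ak2, the kinase PKR that stops translation on binding double-stranded RNA, averaged 16 ± 2.97 CPM in NOD/Ltj and 15 ± 5.3 CPM in ICR (SD, n = 3 each), with a log2 fold change of 0.09 ± 0.29 (SE, edgeR adjusted p = 0.948).

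PARP9 and DTX3L form a complex that ubiquitinates and ADP-ribosylates its targets, and PARP14 is another ADP-ribosyltransferase, all encoded next to each other. Parp14 stood at 31.3, 35.5 and 26.7 CPM in NOD/Ltj, against 16.5, 4.3 and 9.88 CPM in ICR (log2 fold change 1.61 ± 0.44 SE, edgeR adjusted p = 0.142). Dtx3l stood at 10.1, 12.8 and 9.6 CPM in NOD/Ltj, against 5.89, 2.33 and 4.53 CPM in ICR (1.35 ± 0.35, adjusted p = 0.12). The groups did not overlap for either, and NOD/Ltj 2 was the highest library for both. Parp9 averaged 15.3 ± 0.9 CPM in NOD/Ltj and 8.95 ± 5.55 CPM in ICR (SD, n = 3 each, 0.77 ± 0.42, adjusted p = 0.516), and ICR 1 overlapped the NOD/Ltj libraries.

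None of the 3 genes of membrane proteins passed. IFITM3 blocks the fusion of viruses in endosomes. Ifitm3 stood at 29.3, 38.7 and 34.2 CPM in NOD/Ltj, against 73.2, 14.6 and 26.3 CPM in ICR. The NOD/Ltj libraries lay between ICR 1 and the other ICR libraries, and the log2 fold change of −0.16 ± 0.53 (SE, edgeR adjusted p = 0.948) was 0.73 without ICR 1 (adjusted p = 0.245). Bst2, which encodes tetherin and holds budding virus at the cell surface, averaged 11 ± 1.82 CPM in NOD/Ltj and 7.04 ± 4.56 CPM in ICR (SD, n = 3 each, 0.64 ± 0.45, adjusted p = 0.643). Rtp4, a chaperone of receptors, stood at 32, 14.6 and 17.9 CPM in NOD/Ltj, against 10.4, 1.79 and 11.7 CPM in ICR (1.43 ± 0.63, adjusted p = 0.4). For Rtp4 the groups did not overlap, and for Bst2 they did. Part of the Rtp4 count is uncertain, since 11.6% of its 50-base stretches occur in another gene model.

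The last 5 genes have varied or less settled roles, and none passed. Trim30a, which in the mouse restrains innate signalling, stood at 19, 25.8 and 17.8 CPM in NOD/Ltj, against 12.6, 2.99 and 5.37 CPM in ICR (log2 fold change 1.58 ± 0.49 SE, edgeR adjusted p = 0.207). Ifi44 stood at 24, 10.8 and 11.2 CPM in NOD/Ltj, against 8.99, 3.86 and 6.29 CPM in ICR (1.26 ± 0.42, adjusted p = 0.24). The groups did not overlap for either, and Ifi44 shared with the OAS genes the high value of NOD/Ltj 1. Ifi27l2a stood at 23.4, 21.9 and 14.2 CPM in NOD/Ltj, against 30.2, 2.08 and 18.3 CPM in ICR, the widest ratio of highest to lowest ICR library in the list, and its log2 fold change was 0.23 ± 0.75 (SE, edgeR adjusted p = 0.945). Ifi35 averaged 15.7 ± 2.24 CPM in NOD/Ltj and 8.57 ± 4.64 CPM in ICR (SD, n = 3 each, 0.87 ± 0.40, adjusted p = 0.423), without overlap. Xaf1, which encodes a protein that promotes apoptosis, averaged 11.7 ± 2.55 CPM in NOD/Ltj and 9.4 ± 5.38 CPM in ICR (SD, n = 3 each, 0.31 ± 0.44, adjusted p = 0.848), with overlap.

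Levels can be compared between genes only per transcript length, here as CPM per kilobase of merged exons. Short genes stood highest, Ifitm3 at 50.2 in NOD/Ltj and 56.1 in ICR and Ifi27l2a at 42.8 in NOD/Ltj and 36.4 in ICR, followed in NOD/Ltj by Isg20 (20.6 in NOD/Ltj and 19 in ICR) and Samd9l (15.9 in NOD/Ltj and 2.34 in ICR). At the low end, Oas3 stood at 0.587 in NOD/Ltj and 0.188 in ICR, and Rsad2 at 0.832 in NOD/Ltj and 0.187 in ICR. Mx1 stood at 2.52 in NOD/Ltj and 0.236 in ICR. Rsad2, Oas3 and Mx1 were the lowest of the list in ICR on this scale, whereas Samd9l was not near the low end in either group.

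Some members that lie beside each other or form a pair were compared as a ratio within each library, which removes depth and scaling. The log2 ratio of Mx1 to Mx2 was 0.38, 0.99 and 0.38 in NOD/Ltj 1, 2 and 3, against −0.85, −0.44 and −0.88 in ICR 1, 2 and 3. Mx1 counts thus exceeded Mx2 counts in each NOD/Ltj library and lay below them in each ICR library, a difference of 1.31 on the log2 scale. The log2 ratio of Rsad2 to Cmpk2 was −0.49, −0.83 and −0.78 in NOD/Ltj, against −3.40, −1.29 and −0.94 in ICR. Here ICR 1 stood apart from the other ICR libraries, and the difference of 1.17 was 0.41 without it. The differences were 0.47 for Dtx3l to Parp9 (0.29 without ICR 1), 0.55 for Ifit3 to Ifit3b and 0.85 for Oas1g to Oas1a, of which the pairs of IFIT and OAS genes share sequence. In all 5 pairs the groups did not overlap, and the exact two-sided permutation test gave p = 0.1 for each (0.1 also after Benjamini-Hochberg adjustment over the 5), the smallest p that 3 libraries against 3 allow. The gene on top of each ratio was chosen after its values were seen, so the shared sign carries no weight. The pairs were a choice as well. Oasl1 with Oasl2 and Oas2 with Oas3 were not among them, and their CPM give ratios that overlap between the groups. That all 5 pairs lay apart thus carries no weight either.

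**Figure D4:**
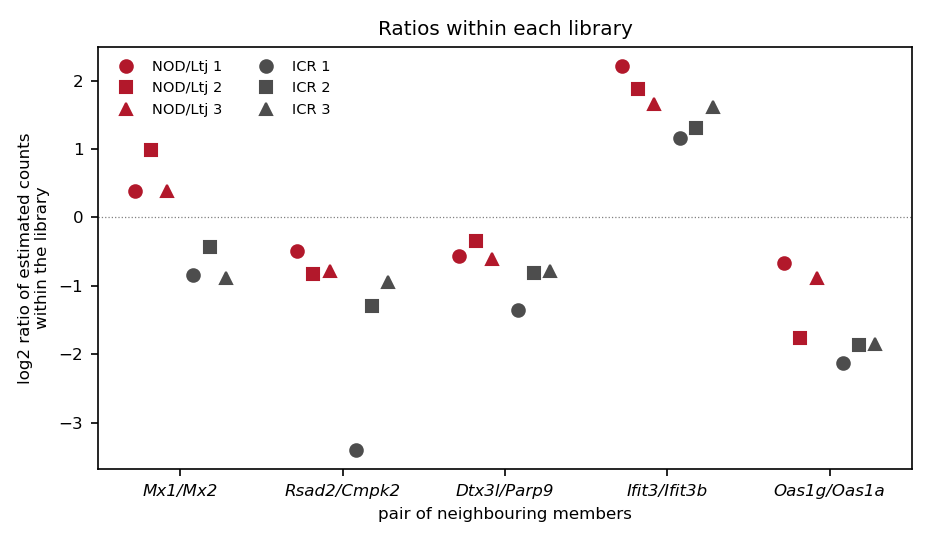
Log2 ratio of the estimated counts of 5 pairs of members within each library, NOD/Ltj in red left of ICR in grey, with no correction for length. For Mx1/Mx2 the NOD/Ltj points lie above 0 and the ICR points below 0, and for Rsad2/Cmpk2 the point of ICR 1 lies at −3.40.

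The spread of the members among libraries was wider in ICR than in NOD/Ltj. The median coefficient of variation of the 35 genes was 18.6% over the NOD/Ltj libraries and 54.2% over the ICR libraries, beside 20.2% in NOD/Ltj and 28.8% in ICR over all genes tested, and it was larger in ICR for 30 of the 35. In ICR the members varied together. ICR 1 was the highest ICR library for 28 of 35 (80%, as for 39.9% of all genes), and ICR 2 was the lowest for 33 (94.3%, as for 30.9% of all genes). ICR 2 lay at least 1.5-fold below both other ICR libraries for 27 members (77.1%, as for 9.48% of all genes). In 12 members (34.3%, as in 63.9% of all genes) ICR 1 lay above the lowest NOD/Ltj library, while in 31 members (88.6%, as in 18.9% of all genes) all NOD/Ltj libraries lay above both ICR 2 and ICR 3. The mean of log2(CPM + 0.5) over the 35 genes was 3.94, 3.54 and 3.54 in NOD/Ltj 1, 2 and 3, against 3.05, 1.69 and 2.62 in ICR 1, 2 and 3. The 3 NOD/Ltj libraries lay above the 3 ICR libraries on this score, and the means were 3.67 ± 0.23 in NOD/Ltj and 2.45 ± 0.70 in ICR (SD, n = 3 each), a difference of 1.22. It was 0.84 without ICR 2 and 1.50 without ICR 1.

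Most macrophage markers had the same highest and lowest ICR library as the members, but with a different spacing. Of 10 such markers 0 were called by edgeR (unadjusted p under 0.05 for 2 higher and 1 lower), and they summed to between 106 and 141 CPM in NOD/Ltj and between 54 and 220 CPM in ICR, with none at 0 in all libraries. ICR 1 was the highest ICR library for 9 of the 10 and ICR 2 the lowest for 9. Yet ICR 2 lay at least 1.5-fold below both other ICR libraries for only 3 of the 10, against 27 of the 35 members. Relative to the ICR mean, the macrophage score was 1.12, −0.73 and −0.39 in ICR 1, 2 and 3. That of the members was 0.60, −0.76 and 0.17. For the macrophage markers ICR 1 thus stood apart, with ICR 3 nearer to ICR 2. Cd163, a scavenger receptor of resident macrophages, stood at 3.57, 1.49 and 1.48 CPM in NOD/Ltj, against 40, 2.52 and 3.27 CPM in ICR, so ICR 1 stood far apart. Its log2 fold change of −2.81 was the lowest of the 10, of which 6 were positive and 4 negative. Mertk went the other way, at 24.9, 16.7 and 16.5 CPM in NOD/Ltj, against 7.45, 12.8 and 10.8 CPM in ICR. Other lists shared parts of the order of the ICR libraries. ICR 1 was the highest ICR library for 15 and ICR 2 the lowest for 19 of 23 interferon-γ responses, and the same held for 27 and 35 of 44 interferon-stimulated genes outside the 35. Of 7 markers of duct epithelium ICR 1 was the highest for 6 and ICR 2 the lowest for 2, and their mean log2(CPM + 0.5) stood 0.76 above the ICR mean in ICR 1, against −0.30 in ICR 2 and −0.46 in ICR 3. The part of macrophages or duct cells in the ICR spread of the interferon-stimulated genes was not tested.

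Among the NOD/Ltj libraries the 35 genes and the lymphocyte markers differed in order. NOD/Ltj 1 was the highest for 25 of the 35 members (71.4%, as for 37.9% of all genes). It lay at least 1.5-fold above both others for 11 (31.4%, as for 8.06%), namely Ifit2, Oas1a, Oas1g, Oas2, Usp18, Mx1, Mx2, Ifih1, Isg20, Rtp4 and Ifi44. NOD/Ltj 2 was the highest for 10 of 10 B cell markers and 10 of 10 T cell markers, as for 35.5% of all genes. It was also the highest for 21 of 23 interferon-γ responses, 6 of 10 macrophage markers and 5 of 7 markers of duct epithelium. Of 44 other interferon-stimulated genes tested, NOD/Ltj 2 was the highest for 27 and NOD/Ltj 1 for 16, so the high value of NOD/Ltj 1 was not shared by most of them. The B cell markers summed to between 126 and 529 CPM in NOD/Ltj and between 3.78 and 6.92 CPM in ICR, with 9 of 10 called higher, and the T cell markers to between 36.8 and 103 CPM in NOD/Ltj and between 4.17 and 4.98 CPM in ICR, with 5 of 10 called higher. With 1 library left out, 0 to 10 of the B cell markers and 0 to 7 of the T cell markers were called, the 0 in both cases without NOD/Ltj 3. None of these markers was at 0 in all libraries. Their part in the strain difference of the interferon-stimulated genes was not tested. Of the interferon-γ responses 15 of 23 rose and 0 fell (edgeR called 3 higher without NOD/Ltj 3, 6 without NOD/Ltj 2 and up to 21 without ICR 1), with a median log2 fold change of 2.77, and their mean of log2(CPM + 0.5) differed by 2.42 between the strains. That difference was not tested against the 1.22 of the interferon-stimulated genes.

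**Figure D5:**
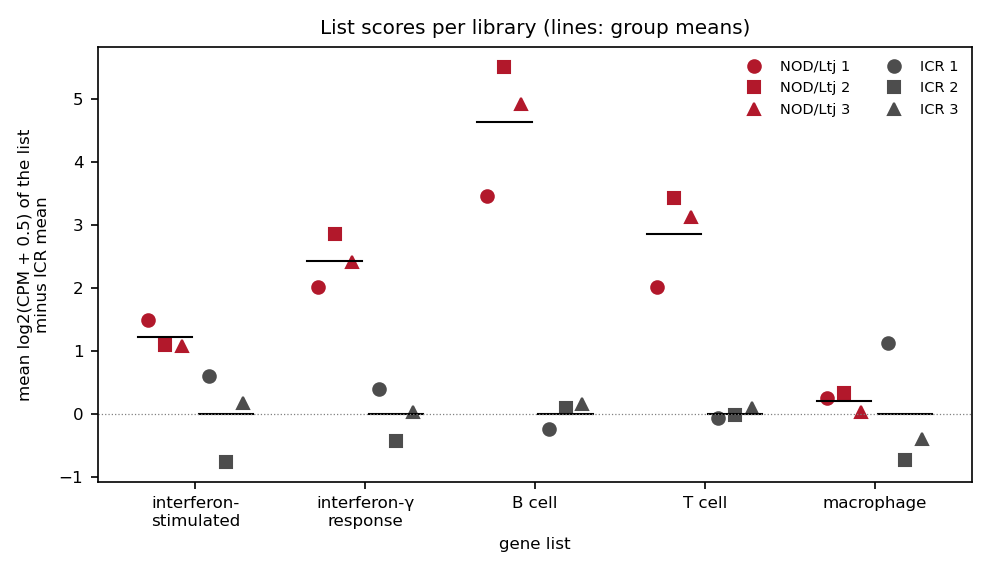
Mean log2(CPM + 0.5) of 5 gene lists in each library, set to 0 at the ICR mean, with NOD/Ltj in red left of ICR in grey and lines for the group means. For the 35 interferon-stimulated genes NOD/Ltj 1 is the highest library (1.49), whereas for interferon-γ responses, B cells and T cells it is the lowest NOD/Ltj library, and ICR 1 is high for the interferon-stimulated genes (0.60) and the macrophage markers (1.12).

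Plasmacytoid dendritic cells are known to make much type I interferon. Of 9 of their markers tested 1 was called higher, Spib, which B cells also use, and the 10 markers summed to between 53.8 and 71.3 CPM in NOD/Ltj and between 36.8 and 72.1 CPM in ICR, with none at 0 in all libraries. Of the 9, 6 had a positive and 3 a negative log2 fold change, with a median of 0.57. The negative ones were Klk1 (−3.07), Cox6a2 (−2.09) and Tcf4 (−0.18), which did not pass. Klk1 stood at 0.0741, 1.76 and 0.939 CPM in NOD/Ltj, against 0.823, 1.28 and 21.5 CPM in ICR, so its fold change rests on ICR 3. Tcf4 was the largest part of the sum in each library, with 18.6 to 33.5 CPM. The sum is therefore no measure of the amount of these cells. Siglech, a surface receptor of these cells in the mouse, stood at 1.72, 2.43 and 2.09 CPM in NOD/Ltj, against 0.116, 0.436 and 0.909 CPM in ICR. The groups did not overlap, and the log2 fold change of 2.10 ± 0.67 (SE, edgeR adjusted p = 0.226) did not pass.

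The ligands themselves were at or near 0. Of 21 interferon genes, 19 were listed at 0 in all 6 libraries, among them Ifnb1, and Ifnz stayed at or under 0.035 CPM, below the floor. Ifng, the type II interferon, stood at 0.278, 0.71 and 0.591 CPM in NOD/Ltj, against 0.231, 0 and 0 CPM in ICR. ICR 2 and ICR 3 were at 0, and its difference did not pass (edgeR adjusted p = 0.479). Its groups did not overlap in TMM-scaled CPM. But NOD/Ltj 1 held 15 counts and ICR 1 held 16, close to the floor of 12. By library totals alone ICR 1 would lie above NOD/Ltj 1, so that separation rests on the scaling. No type I interferon transcript, Ifnz included, was detectable above the floor at this depth.

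Genes of interferon receptors and signalling are given singly. Ptpn6, a phosphatase that damps cytokine receptors and is abundant in blood cells, rose by 1.61 ± 0.30 (log2, SE, edgeR adjusted p = 0.0413). Of the ISGF3 genes, Stat2 and Irf9 did not pass, Stat2 with a log2 fold change of 0.94 ± 0.36 (edgeR adjusted p = 0.319) and Irf9 with 0.77 ± 0.39 (adjusted p = 0.487). Irf7, the factor that amplifies interferon production, stood at 44, 25.7 and 28 CPM in NOD/Ltj, against 11.4, 4.09 and 14.9 CPM in ICR (1.69 ± 0.46 SE, edgeR adjusted p = 0.14), with NOD/Ltj 1 the highest, as for Mx1. The receptor chains Ifnar1 (0.80 ± 0.21, edgeR adjusted p = 0.127) and Ifnar2 (0.55 ± 0.23, adjusted p = 0.382) did not pass. Of 19 genes of nucleic acid sensing 2 rose and 0 fell, with a median log2 fold change of 0.48. They were Zbp1, a sensor of Z-form nucleic acid that is itself induced by interferon (2.17 ± 0.37 SE, edgeR adjusted p = 0.0312), and Unc93b1, the escort of the endosomal Toll-like receptors (1.93 ± 0.36, adjusted p = 0.0412). Of the 6 fits with 1 library left out, Ptpn6 and Unc93b1 kept their call in that without NOD/Ltj 1 (edgeR adjusted p = 0.0202 and 0.0201), Zbp1 kept its own in that without ICR 1 (0.00689), and the others gave 0.0547 to 0.185.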

How the data were processed

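RNA of 3 NOD/Ltj and 3 ICR lacrimal gland samples was sequenced, 1 library each. Per the labels' protocols, polyadenylated RNA went into strand-marked libraries read as 150 bp pairs. Per the submitters' processing notes, fastp, StringTie and edgeR were used, with no version or role stated. Aligner, build and strand setting are not given in the sources used, so overlapping and antisense genes are uncertain. The authors deposited estimated counts per gene, whole numbers without scaling between libraries. The tests had been planned for plain counts and were kept, with nothing rounded. Symbols from the GENCODE M21 gene table matched 55141 of 55401 identifiers.

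The strains were compared with edgeR 4.0.16 in R 4.3.3 (quasi-likelihood test, TMM scaling, filterByExpr, two-sided, no block). Benjamini-Hochberg adjustment ran over all 18537 tested genes. The SE of a log2 fold change is its size divided by the square root of F. The common biological coefficient of variation was 0.421, and TMM factors ran from 0.809 (ICR 2) to 1.255 (NOD/Ltj 2). Alternatives were DESeq2 1.42.0, limma-voom (limma 3.58.1), other scalings and filters, counts divided by 4, a replicate block and leaving out each library. The estimated counts step in about 4 per fragment: between 30.4 and 31.7% of values from 1 to 40 were multiples of 4, where 25% would be without steps. A count of 0 allows 3 fragments at 95% confidence, or 12 counts. Without molecular identifiers on the reads, such floors cover counting error alone. Each pair of libraries was compared by chi-square over genes (34.7 to 341 per degree of freedom), so each counted as 1 sample. The labels do not say that samples came from separate animals, and a p-value then reflects the spread among these samples, which may be technical. The edgeR, DESeq2 and limma-voom fits were tested on simulated data.

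The 35 genes, the other lists and the tests were chosen with earlier results of these data known. Values in every library are given for called members, for the most abundant member of each role and for members with groups apart whose log2 fold change reached 1 in size. Usp18, Isg20, Cd163, Mertk, Siglech and Klk1 were added after their values were seen. Shared sequence was counted as 50-base stretches of GENCODE M21 transcripts. Promoter windows are RefSeq's, and their coordinates are independent of the counts' build. No set test was run. A gene of interferon signalling, and the count over that list, are not reported here.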

Additional observations from a re-analysis of the deposited data

How the results depend on the processing

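With library totals only, edgeR called 226 genes higher and 40 lower of those tested, against 349 and 67 with TMM. DESeq2 called 898 higher and 285 lower, and limma-voom 123 and 20. With 1 library left out, the higher genes ran from 11 to 406, the lower genes from 2 to 118 and the members called higher from 0 to 9. DESeq2 called 12 members higher. The other scalings, both filters and counts divided by 4 called Mx1, Rsad2 and Samd9l, as in the reported fit. The members' median log2 fold change ran from 0.82 to 1.63 over all alternatives, while the median of all genes ran from −0.07 to 0.09. Correlations of same-numbered deviations were −0.161, −0.189 and 0.118, and those of other-numbered ones ran from −0.116 to 0.223. With so few libraries these values cannot tell whether the replicate numbers pair the samples. The replicate block gave 129 higher and 25 lower genes and 1 member called higher, Mx1. The direction of Ifitm3 was reversed by limma-voom (0.15) and by the replicate block (0.17), and its log2 fold change ran from −0.55 to 0.73 with 1 library left out, positive without ICR 1. That of Ifi27l2a ran from −0.29 to 0.96, negative without ICR 2. The reversals of Ifitm3 and Ifi27l2a were of genes far from the threshold, and the cause was not tested. Directions were followed singly for 22 of the 35 members. Over all 35, a positive log2 fold change was found for 32 without NOD/Ltj 1 and for 31 without ICR 2. Further members thus changed direction in those fits. With pseudocounts of 0.1 and 1 CPM the score difference was 1.34 and 1.11. Of the 20 members with a log2 fold change of at least 1, 3 were called. Over all genes tested, 1755 reached such a fold change and 349 were called higher at any fold change. The 3 of 20 is therefore not read as a trait of the list.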

Other observations

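Of 44 tested interferon-stimulated genes outside the 35, 7 rose, 1 fell and 36 were not called, with a median log2 fold change of 1.25. Over all genes tested, 1.88% were called higher and 0.361% lower. With 1 library left out, edgeR called 0 (without NOD/Ltj 2 or NOD/Ltj 3) to 13 (without ICR 1) of these 44 higher. The shares over all genes in those 3 fits were 0.33%, 0.0572% and 2.1%. Trim30b, a relative of Trim30a, stood at 2.39, 3.39 and 3.2 CPM in NOD/Ltj, against 0.318, 0.113 and 0.14 CPM in ICR (3.95 ± 0.50 SE, edgeR adjusted p = 0.0124). Its groups lay far apart, with ICR 2 and ICR 3 under the floor of 12 counts. Slfn1 and Slfn8, Schlafen genes of lymphocytes and myeloid cells, rose by 3.27 and 2.56 on the log2 scale. Uba7, the enzyme that activates ISG15, rose by 2.03 ± 0.24 (log2, SE, edgeR adjusted p = 0.0108), while Isg15 itself was not called. Helz2, Sp110 and Rnf213 rose by 2.01, 1.46 and 1.42 on the log2 scale. Of the 6 edgeR fits with 1 library left out, 4 kept the call of Slfn1 and of Uba7. The calls of Trim30b, Slfn8 and Sp110 were kept in 3 each and that of Helz2 in 1. Rnf213 was called in 0 of the 6 (edgeR adjusted p from 0.053 to 0.145). Ly6e, a surface protein induced by interferon, went the other way. It stood at 44.7, 60 and 42.3 CPM in NOD/Ltj, against 638, 461 and 178 CPM in ICR (−3.12 ± 0.48 SE, edgeR adjusted p = 0.0211), and the groups did not overlap. Its call was kept without ICR 1 or ICR 3 (edgeR adjusted p = 0.0251 and 0.0162) and ended without each of the others (0.0736 to 0.14).

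Among 13937 other genes with a mean of at least 1 CPM, those whose log2(CPM + 0.5) followed the mean score of the 35 most closely over the 6 libraries were Pcgf5 (Pearson r = 0.991), a gene model without a symbol (0.99), Ddx60 (0.987), Zc3hav1 (0.986) and Zfp995 (0.985). Ddx60 is a helicase and Zc3hav1 encodes the zinc-finger antiviral protein, both interferon-stimulated and neither in the list. None of the 5 was called between the strains by edgeR (adjusted p from 0.316 to 0.577). The r includes the strain difference and is a description.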
